A study of Mus musculus with 15 samples.

Results

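Expression of 6 genes that place lymphocytes within lymphoid tissue or hold them there was described in resting and activated mouse spleen B and T cells. The genes were S1pr1, S1pr4, Cd69, Gpr183, Gpr18 and P2ry10. Every probe set whose annotation gave exactly 1 of these symbols was taken, which gave 7 probe sets for 6 genes, out of 45101 probe sets and 18194 genes on the arrays. Gpr183 had 2 probe sets and the others had 1 each. All 6 genes were among the 9045 whose highest group mean reached a log2 signal of 5, the level required for a test.

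The study's title concerns c-Myc and gene expression at large. The 15 Affymetrix arrays fell into 5 groups of 3. B cells had been exposed for 4 h to lipopolysaccharide (LPS, which activates B cells through Toll-like receptor 4) at 25 ug/ml, and were set against B cells at 0 h. T cells were taken at 0 h, and at 4 h and 14 h of exposure to the lectin concanavalin A (ConA, a mitogen of T cells) at 7.5 ug/ml. All cells came from spleens of B6x129 mice, and culture in medium alone was not among the groups, so agent and culture cannot be told apart. The labels do not say how B and T cells were separated, or which animals or cultures the replicates came from, so p-values measure only the spread between these samples.

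Lymphocytes leave lymphoid organs by following the lipid sphingosine 1-phosphate (S1P), which is abundant in blood and lymph and scarce inside the tissue. S1pr1 is the main receptor for this exit, S1pr4 is a related S1P receptor of blood cells, and Cd69 is a lectin-like surface protein that binds S1pr1 and takes it off the cell surface. Gpr183 (also called Ebi2) reads oxysterol gradients that place B and T cells at follicle borders, while Gpr18 and P2ry10 are reported to respond to small lipids.

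The promoters of the genes that moved in opposite directions are shown, since at 4 h S1pr4 fell with both agents, P2ry10 and Gpr183 rose with both, and Gpr18 fell in B cells and rose in T cells. RefSeq windows (build GRCm38.p6) of the 250 bases before the start were found for 4 of the 6 genes and comprised 5 windows, of which 4 are printed 5′ to 3′, with capitals marking motif matches.
S1pr4 (chr10:81500138-81500387, minus strand): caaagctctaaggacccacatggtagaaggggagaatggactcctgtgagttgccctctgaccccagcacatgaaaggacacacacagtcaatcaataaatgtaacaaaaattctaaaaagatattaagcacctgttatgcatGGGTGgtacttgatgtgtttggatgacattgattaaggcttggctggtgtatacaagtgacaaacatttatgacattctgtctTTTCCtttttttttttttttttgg
Gpr183 (chr14:121965194-121965443, minus strand): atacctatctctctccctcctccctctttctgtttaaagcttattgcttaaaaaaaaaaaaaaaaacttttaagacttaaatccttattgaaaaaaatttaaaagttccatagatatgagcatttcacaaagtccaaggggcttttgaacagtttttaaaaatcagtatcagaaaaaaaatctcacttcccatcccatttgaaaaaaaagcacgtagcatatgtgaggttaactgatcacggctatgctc
Gpr18 (chr14:121915889-121916138, minus strand): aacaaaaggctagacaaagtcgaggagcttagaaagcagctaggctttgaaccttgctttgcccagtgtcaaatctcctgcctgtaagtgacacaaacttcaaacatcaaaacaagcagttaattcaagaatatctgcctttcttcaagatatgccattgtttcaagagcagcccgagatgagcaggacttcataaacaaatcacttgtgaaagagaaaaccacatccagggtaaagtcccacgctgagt
P2ry10 (chrX:107088242-107088491, plus strand): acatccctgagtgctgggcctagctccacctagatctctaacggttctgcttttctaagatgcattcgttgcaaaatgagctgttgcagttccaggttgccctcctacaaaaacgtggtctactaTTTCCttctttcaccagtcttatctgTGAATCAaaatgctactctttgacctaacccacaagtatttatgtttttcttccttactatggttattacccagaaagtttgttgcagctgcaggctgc
On both strands, 5 motifs were searched: CACCC (Kruppel-like factors), TGANTCA (a loose form of the AP-1 site, with any base at N), CACGTG (Myc E-box), TGACGTCA (cyclic AMP response element) and TTTCC (NFAT core). The S1pr4 window held CACCC, read as GGGTG on the printed strand, 102 bases before the start and TTTCC 19 bases before it. The printed P2ry10 window held TGANTCA 92 bases and TTTCC 120 bases before the start, and a second P2ry10 window held TTTCC 189 bases before its start. The TGANTCA match reads TGAATCA, and whether AP-1 binds it was not tested. The Gpr183 and Gpr18 windows held none of the 5. Among 32851 windows of this length, 52.0% held CACCC, 6.75% TGANTCA, 6.02% CACGTG, 1.55% TGACGTCA and 55.6% TTTCC. No 2 matches overlapped.

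The labelled cell types were checked against markers. Summed over 11 B cell markers, the log2 signal was 15.52 to 15.71 with LPS and 16.83 to 16.88 at 0 h in B cells, against 9.50 to 9.71 in T cells at 0 h. In T cells with ConA these markers summed to 9.07 to 9.32 at 4 h and 8.65 to 8.73 at 14 h. Of the 11, 5 rose and 2 fell in T cells at 4 h. Cr2 averaged 3.09 at 0 h, 6.32 at 4 h and 2.53 at 14 h there, and Cd72 8.67, 6.27 and 6.15. Summed over 11 T cell markers the log2 signal was 7.15 to 7.46 with LPS and 10.97 to 11.06 at 0 h in B cells, against 15.78 to 15.84 in T cells at 0 h. The B cell sum at 0 h rested mostly on Cd2, which averaged 10.93 there and 5.72 with LPS. In B cells at 0 h, 8 of the 11 averaged under 4, Cd3d, Cd3g and Thy1 among them. Markers of monocytes, macrophages and neutrophils summed to 11.66 to 11.87 with LPS and 13.17 to 13.25 at 0 h in B cells, and 7 of the 8 tested fell. In T cells these summed to 9.59 to 9.999 before ConA, 10.79 to 11.24 after 4 h and 8.02 to 8.26 after 14 h. They did not go one way at 4 h, where 2 of the 8 tested rose and 2 fell. S100a8 averaged 7.48 at 0 h and 10.19 at 4 h in T cells, and S100a9 6.20 and 8.65. Lyz1 averaged 8.34 and 7.54 there, and Lyz2 7.16 and 6.18. Erythroid markers summed to 9.58 to 9.79 with LPS and 11.21 to 11.29 at 0 h in B cells, and in T cells to 12.22 to 12.31 at 0 h, 8.04 to 8.22 at 4 h and 7.44 to 7.65 at 14 h. The T cell sum at 0 h rested mostly on Car1, which averaged 12.18 there and 9.17 in B cells at 0 h. The other 3 of the 4 tested were higher in B cells at 0 h. Klf1, Epor and Alas2 averaged 9.18, 6.78 and 10.16 in those B cells, against 7.94, 4.69 and 2.24 in T cells at 0 h. NK cell markers summed to 12.88 to 12.92 in T cells at 0 h, 11.54 to 11.76 at 4 h and 11.76 to 11.84 at 14 h. Sums for plasma cells, dendritic cells and platelets were 11.24 to 11.32, 9.66 to 10.03 and 4.53 to 4.68 with LPS, against 13.43 to 13.47, 7.05 to 7.26 and 6.20 to 6.47 in B cells at 0 h. The dendritic cell markers did not go one way. Zbtb46 averaged 9.49 with LPS and 4.86 at 0 h, Flt3 7.29 and 4.99, and Itgax 2.34 and 6.08. Siglech and Xcr1 averaged under 4 in both groups. Of the plasma cell markers, Sdc1 and Prdm1 averaged under 4 with LPS. The part of these shifts in the results was not tested, and in bulk samples fewer cells of a type and less RNA per cell cannot be told apart. On T 0 h array 2 and T ConA 4 h array 1 the 3′ signal of a dap spike-in exceeded its 5′ signal by 4.52 and 5.35, against 1.39 to 1.96 on the other T arrays and 0.21 to 0.78 on the B arrays.

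S1pr1, the exit receptor, fell to near the array floor in B cells after LPS, and fell much less in T cells after ConA. Its log2 signals were 3.62, 2.91 and 3.43 in B cells with LPS, against 11.51, 11.47 and 11.57 in B cells at 0 h. In T cells they were 11.34, 11.09 and 11.49 at 0 h, 10.07, 10.18 and 10.09 at 4 h, and 10.03, 9.98 and 9.92 at 14 h. B cells at 0 h and T cells at 0 h overlapped at the top of the order, T cells at 4 h and then 14 h followed without overlap, and LPS-treated B cells stood far below all of them.

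The fall of S1pr1 in LPS-treated B cells was -8.20 ± 0.14 on the log2 scale (SE of the limma fit, 293-fold, adjusted p = 6.65e-15) and took place 3 among the falls of the 9045 genes. In T cells S1pr1 changed by -1.19 ± 0.14 at 4 h (2.28-fold, adjusted p = 6.56e-06) and by -1.33 ± 0.14 at 14 h (2.51-fold, adjusted p = 2.09e-06). Both T cell comparisons use the same 0 h arrays. Between 14 h and 4 h the difference was -0.14, with a 95% interval of -0.45 to 0.18 (adjusted p = 0.472), so a further change was not detected. The 4 h response was lower in B cells than in T cells by -7.00 ± 0.21 (interaction in limma, adjusted p = 3.57e-12). Signals under 4 lie near the array floor of 2.24, so the fold for LPS depends on where the background correction placed that floor. Endothelial cells also carry S1pr1: of 9 endothelial and stromal markers, 7 were under 4 in both B cell groups, Cdh5, Kdr and Tek among them, while the sum over the 9 was 8.41 to 8.52 with LPS and 11.82 to 11.89 at 0 h. The other 2 markers fell with S1pr1: Vcam1 averaged 4.82 with LPS and 11.14 at 0 h, and Pecam1 8.18 with LPS and 10.48 at 0 h. The part of such cells in the fall of S1pr1 was not tested. T cells had sums of 8.15 to 8.54 before ConA, 6.59 to 7.36 after 4 h and 7.86 to 7.94 after 14 h.

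S1pr4 fell after LPS as S1pr1 did, and its fall in T cells at 4 h was smaller by 14 h. Its signals were 2.87, 3.90 and 3.99 in B cells with LPS, against 8.70 on each of the 3 arrays in B cells at 0 h. In T cells they were 9.98, 9.96 and 10.03 at 0 h, 8.93, 8.82 and 8.79 at 4 h, and 9.52, 9.49 and 9.58 at 14 h. No groups overlapped: T cells at 0 h were highest, then T cells at 14 h, T cells at 4 h, B cells at 0 h and B cells with LPS.

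For S1pr4 the LPS change was -5.11 ± 0.21 (34.6-fold, limma adjusted p = 2.19e-11), place 89 among the falls. With ConA S1pr4 changed by -1.15 ± 0.21 at 4 h (2.21-fold, adjusted p = 0.000247). At 14 h the difference from 0 h was -0.46 with a 95% interval of -0.91 to -0.01, and it did not pass the test (adjusted p = 0.0635). That test pools the spread of all groups, and the widest spread of S1pr4, an SD of 0.63, was in LPS-treated B cells. In a fit on the T cells compared alone the adjusted p was 0.000248, and it was 2.13e-05 without LPS array 1 and 0.0382 without LPS array 3. S1pr4 was higher at 14 h than at 4 h by 0.69 ± 0.21 (adjusted p = 0.0142, and 0.0532 with no level filter). The B cell response exceeded the T cell response in size, with an interaction of -3.97 ± 0.29 (adjusted p = 4.14e-08).

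Cd69 rose with both agents, and the activated B and T cells reached signals that overlapped. Its signals were 13.37, 13.44 and 13.02 in B cells with LPS, against 9.64, 9.62 and 9.52 in B cells at 0 h. In T cells they were 10.88, 10.64 and 10.78 at 0 h, 13.11, 13.27 and 13.40 at 4 h, and 12.46, 12.56 and 12.43 at 14 h. LPS-treated B cells and T cells at 4 h overlapped at the top, followed without overlap by T cells at 14 h, T cells at 0 h and B cells at 0 h.

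Cd69 rose by 3.68 ± 0.11 with LPS (12.8-fold, limma adjusted p = 7.92e-13), and with ConA by 2.50 ± 0.11 at 4 h (5.64-fold, adjusted p = 1.84e-10) and 1.72 ± 0.11 at 14 h (3.29-fold, adjusted p = 8.96e-09). These were places 128, 133 and 271 among the rises. From 4 h to 14 h Cd69 fell by 0.78 ± 0.11 (adjusted p = 5.53e-05). At 0 h it was lower in B than in T cells by -1.17 ± 0.11 (adjusted p = 2.50e-07). After 4 h the difference between B and T cells was 0.01 with an interval of -0.22 to 0.25 (adjusted p = 0.917) and a sign that changed with the normalization, and the B cell rise was larger by 1.19 ± 0.15 (interaction, adjusted p = 1.17e-05).

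**Figure D1:**
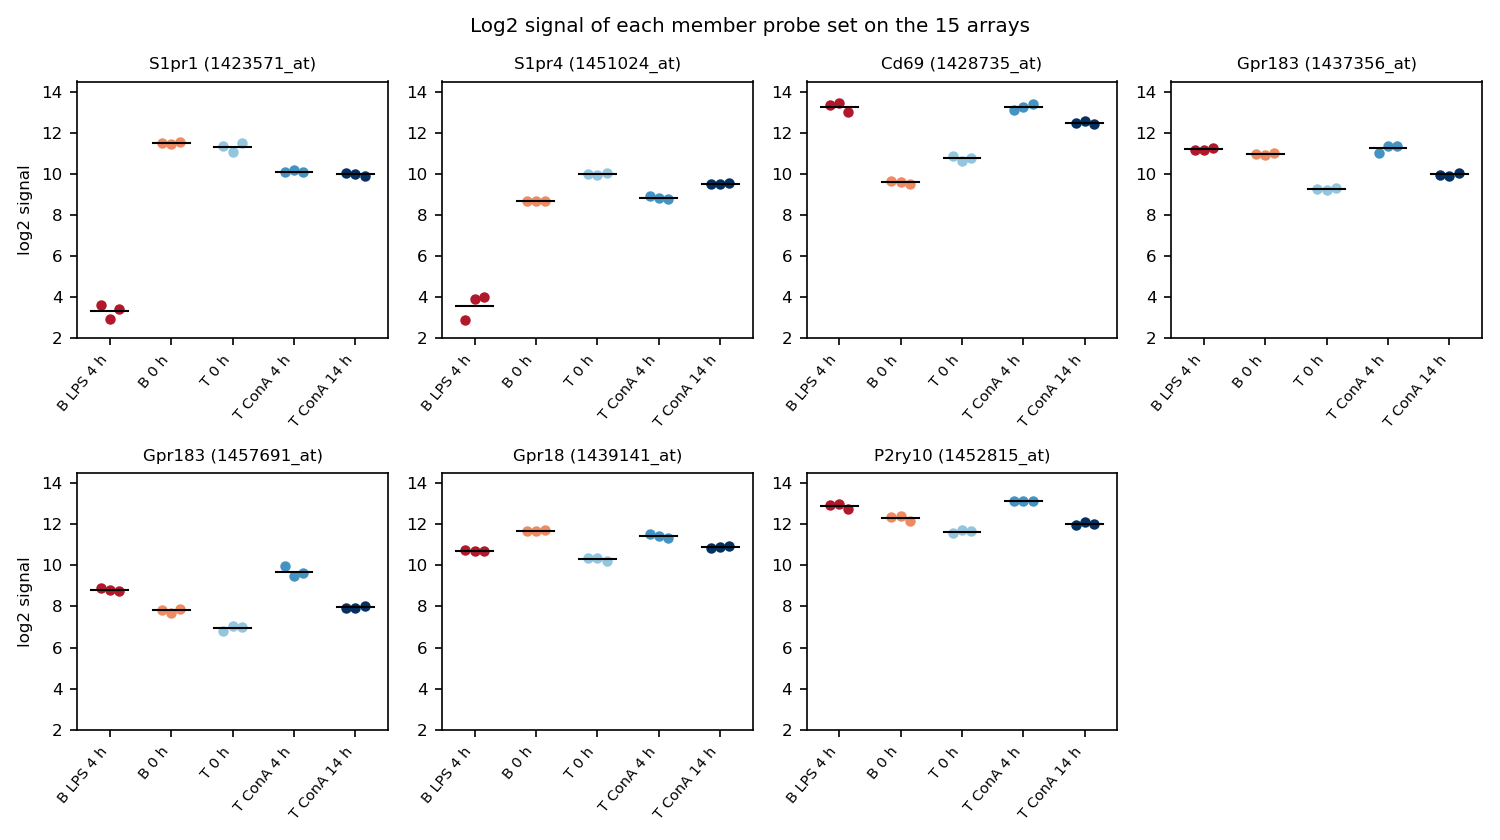
Log2 signal (vertical axis) of each of the 7 probe sets on the 15 arrays, by group (horizontal axis). Points are arrays and lines are means over 3 arrays. S1pr1 and S1pr4 sit under 4 in B cells with LPS and above 8 in all other groups.

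**Figure D2:**
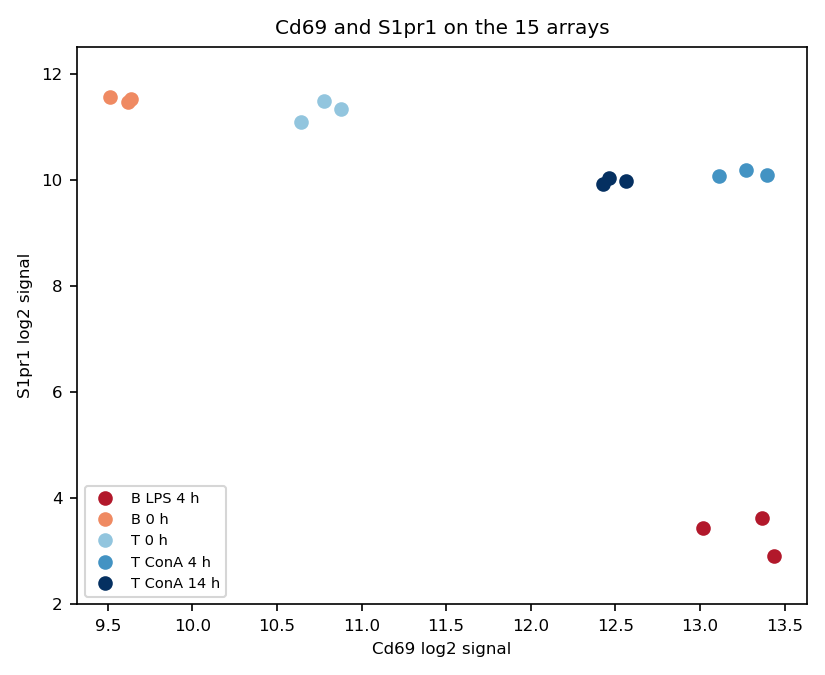
S1pr1 log2 signal (vertical axis) against Cd69 log2 signal (horizontal axis), 1 point per array, coloured by group. LPS-treated B cells and T cells at 4 h share the Cd69 range near 13. S1pr1 is 2.91 to 3.62 in these B cells and 10.07 to 10.18 in these T cells. Both signals are of mRNA, and protein at the cell surface was not measured.

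At overlapping Cd69 signals, S1pr1 was lower in B cells with LPS than in T cells at 4 h by -6.79 ± 0.14 (111-fold, limma). The correlation of S1pr1 and Cd69 over the 15 arrays was -0.64 as a description, and the arrays share 5 groups. For S1pr1 and S1pr4 the correlation was 0.95.

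Gpr183, the oxysterol receptor, rose in T cells, more at 4 h than at 14 h, while its rise in B cells was small on one probe set and clear on the other. On the brighter probe set the signals were 11.17, 11.18 and 11.26 in B cells with LPS, against 10.95, 10.94 and 11.02 in B cells at 0 h. In T cells they were 9.27, 9.22 and 9.29 at 0 h, 11.01, 11.38 and 11.34 at 4 h, and 9.96, 9.92 and 10.05 at 14 h. T cells at 4 h overlapped LPS-treated B cells and, by 1 array, B cells at 0 h, while T cells at 14 h and then 0 h lay below without overlap.

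On that probe set Gpr183 rose by 0.24 ± 0.09 with LPS (1.18-fold, limma adjusted p = 0.0213). The call was lost after cyclic loess (0.17, adjusted p = 0.0793) and quantile normalization (0.09, adjusted p = 0.350), and without B 0 h array 1, B 0 h array 2 or LPS array 3 (highest adjusted p = 0.0704). With ConA Gpr183 rose by 1.98 ± 0.09 at 4 h (3.94-fold, adjusted p = 1.83e-10, place 224 among the rises) and by 0.71 ± 0.09 at 14 h (1.64-fold, adjusted p = 5.23e-06). It was lower at 14 h than at 4 h by -1.26 ± 0.09 (adjusted p = 8.67e-08). At 0 h it was higher in B than in T cells by 1.71 ± 0.09 (3.27-fold, adjusted p = 3.18e-10), and the interaction was -1.74 ± 0.12 (adjusted p = 2.26e-08).

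The second Gpr183 probe set read 8.90, 8.80 and 8.73 in B cells with LPS, against 7.84, 7.68 and 7.90 in B cells at 0 h. In T cells it read 6.82, 7.06 and 7.01 at 0 h, 9.97, 9.49 and 9.61 at 4 h, and 7.92, 7.92 and 8.02 at 14 h. Here LPS-treated B cells lay above B cells at 0 h and below T cells at 4 h with no overlap. Its changes were 1.00 with LPS (2.01-fold, limma adjusted p = 2.58e-06), 2.73 with ConA at 4 h (6.62-fold) and 0.99 at 14 h. At 0 h B cells were higher than T cells by 0.84 on the second probe set (1.79-fold, adjusted p = 1.73e-05), a smaller difference than the 1.71 of the brighter one. The 2 probe sets gave different calls for B against T cells after 4 h, which was -0.88 (adjusted p = 1.06e-05) on the second and -0.04 (95% interval -0.22 to 0.15, adjusted p = 0.719) on the brighter one. Without the 2 arrays with a weak 5′ spike-in signal the brighter one gave -0.15 (adjusted p = 0.0399).

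Gpr18 moved in opposite directions in the B and T cells. Its signals were 10.75, 10.71 and 10.72 in B cells with LPS, against 11.67, 11.65 and 11.72 in B cells at 0 h. In T cells they were 10.34, 10.34 and 10.22 at 0 h, 11.51, 11.43 and 11.34 at 4 h, and 10.86, 10.90 and 10.94 at 14 h. No groups overlapped: B cells at 0 h were highest, then T cells at 4 h, T cells at 14 h, B cells with LPS and T cells at 0 h.

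Gpr18 changed by -0.95 ± 0.06 with LPS (1.94-fold lower, limma adjusted p = 3.76e-09), by 1.12 ± 0.06 with ConA at 4 h (2.18-fold, adjusted p = 2.07e-09) and by 0.60 ± 0.06 at 14 h (1.51-fold, adjusted p = 1.26e-06). The interaction was -2.08 ± 0.09 (adjusted p = 1.23e-10). Between the 2 T cell times it fell by 0.53 ± 0.06. B cells were above T cells by 1.38 ± 0.06 at 0 h and differed from them by -0.70 ± 0.06 after 4 h, so that the order of the cell types turned round.

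P2ry10, a receptor reported to bind lysophosphatidylserine, rose in both cell types, most in T cells at 4 h. Its signals were 12.944, 13.003 and 12.762 in B cells with LPS, against 12.33, 12.39 and 12.18 in B cells at 0 h. In T cells they were 11.56, 11.70 and 11.68 at 0 h, 13.13, 13.11 and 13.14 at 4 h, and 11.96, 12.11 and 11.99 at 14 h. No groups overlapped, with T cells at 4 h highest, then B cells with LPS, B cells at 0 h, T cells at 14 h and T cells at 0 h.

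The change of P2ry10 was 0.60 ± 0.08 with LPS (1.52-fold, limma adjusted p = 7.53e-06), 1.48 ± 0.08 with ConA at 4 h (2.79-fold, adjusted p = 1.52e-09) and 0.37 ± 0.08 at 14 h (1.29-fold, adjusted p = 0.000858). It was lower at 14 h than at 4 h by -1.11 ± 0.08, and higher in B than in T cells at 0 h by 0.65 ± 0.08. The interaction was -0.88 ± 0.11 (adjusted p = 1.06e-05). After 4 h it was lower in B than in T cells by -0.22 ± 0.08 (adjusted p = 0.0192), a call lost after cyclic loess (-0.04), with the spike-in covariate (-0.20) and without LPS array 3 (-0.15).

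**Figure D3:**
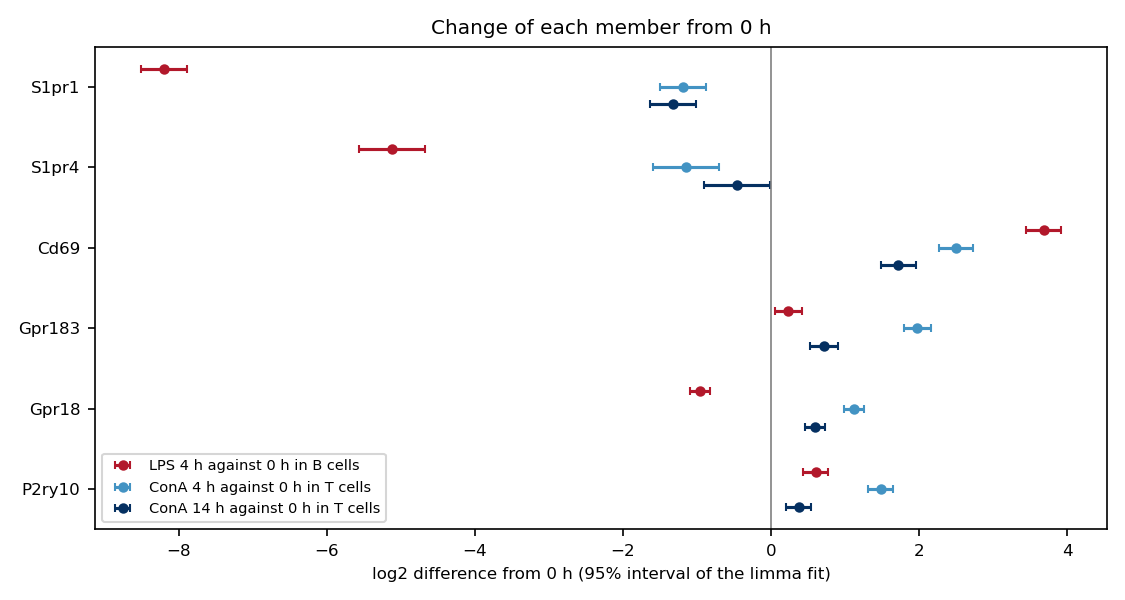
Log2 difference from 0 h (horizontal axis) of the 6 genes, with LPS in B cells and with ConA at 4 h and 14 h in T cells. Points are limma estimates for 3 against 3 arrays and bars their 95% intervals. Gpr18 lies at -0.95 with LPS and at 1.12 and 0.60 with ConA, and S1pr1 at -8.20 with LPS.

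In B cells with LPS, 3 of the 6 genes rose (Cd69, Gpr183 and P2ry10) and 3 fell (S1pr1, S1pr4 and Gpr18), where 37.6% of all genes tested rose and 42.3% fell (79.9% in either direction). In T cells with ConA at 4 h, 4 rose (Cd69, Gpr183, Gpr18 and P2ry10) and 2 fell (S1pr1 and S1pr4), against 33.4% and 32.5% of all genes (65.9% in either direction). At 14 h the same 4 genes rose and S1pr1 fell, against 36.6% and 31.9% (68.4% in either direction). The median change of the 6 genes was -0.36 with LPS, 1.30 with ConA at 4 h and 0.49 at 14 h, and that of all genes -0.05, 0.00 and 0.03. Without the 2 arrays that had a weak 5′ spike-in signal, the 4 h changes were -1.28 for S1pr1, -1.20 for S1pr4, 2.51 for Cd69, 2.07 for Gpr183, 1.11 for Gpr18 and 1.505 for P2ry10. With those arrays left out, the 14 h changes were -1.44 for S1pr1, -0.47 for S1pr4, 1.66 for Cd69, 0.69 for Gpr183, 0.62 for Gpr18 and 0.40 for P2ry10.

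From 4 h to 14 h with ConA, S1pr4 was higher and Cd69, Gpr183, Gpr18 and P2ry10 were lower, against 27.4% of all genes higher and 21.5% lower (48.9% in either direction). Each of the 4 genes that fell had risen at 4 h and remained above its 0 h signal at 14 h. At 0 h, Gpr183, Gpr18 and P2ry10 were higher in B than in T cells and S1pr4 and Cd69 were lower, against 25.5% of all genes higher and 51.1% lower (76.6% in either direction). S1pr4 differed there by -1.29 ± 0.21 (limma adjusted p = 6.29e-05), and S1pr1 by 0.21 with an interval of -0.10 to 0.53 (adjusted p = 0.194, and called at 0.37 after cyclic loess, adjusted p = 0.0303). The median over all genes in this comparison was -0.27.

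After 4 h, 4 of the 6 genes were lower in B cells with LPS than in T cells with ConA and none was higher, against 50.1% of all genes lower and 27.9% higher (78.0% in either direction). The lower genes were S1pr1, S1pr4 (-5.26 ± 0.21), Gpr18 and P2ry10. The interaction was positive for Cd69 and negative for the other 5, against 31.3% of all genes positive and 34.8% negative (66.1% in either direction).

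**Figure D4:**
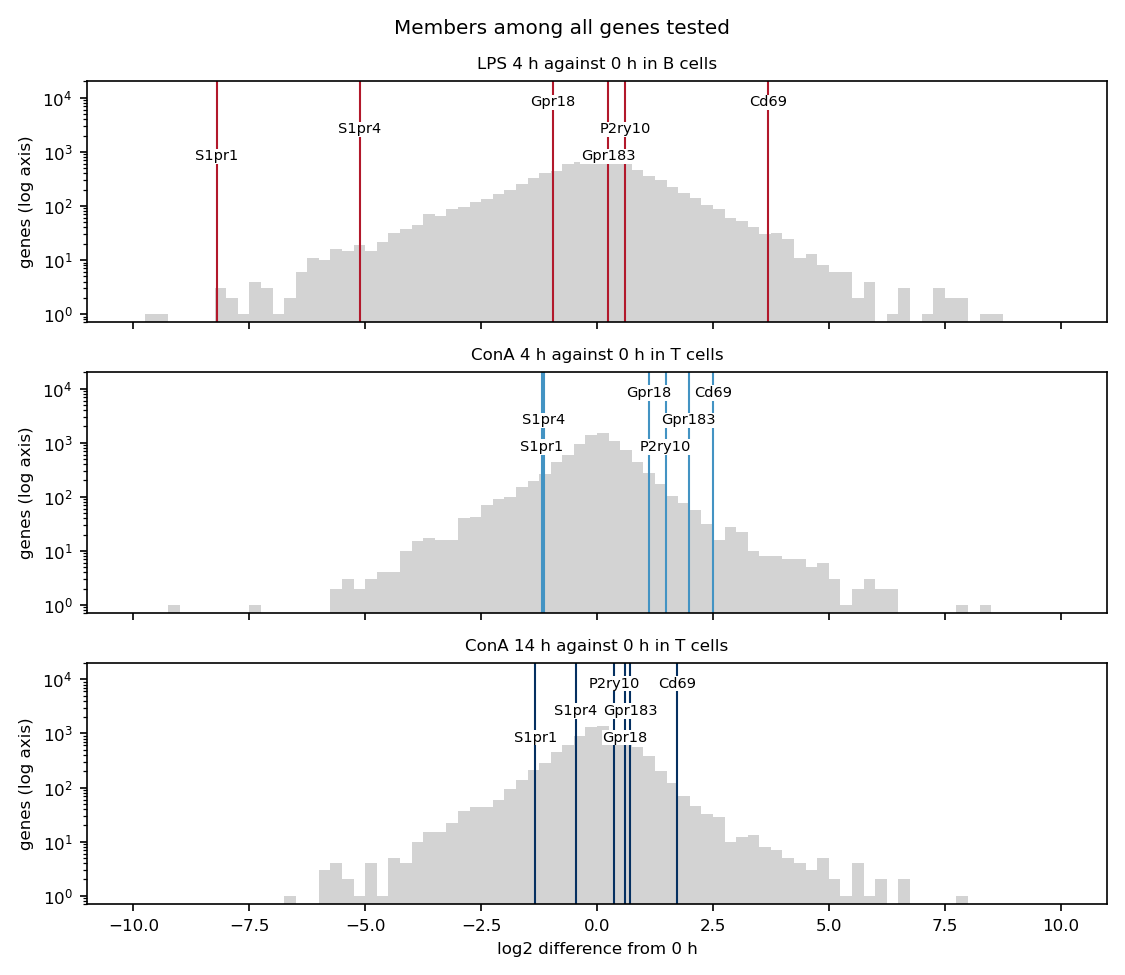
Number of genes (vertical axis, log scale) by log2 difference from 0 h (horizontal axis) for the 9045 genes tested, in grey, with the 6 genes as lines. S1pr1 at -8.20 and S1pr4 at -5.11 lie in the left tail with LPS, and Cd69 in the right tail in each panel.

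In RefSeq, Gpr18 and Gpr183 are adjacent on chromosome 14 and lie within the span of another coding gene, Ubac2. Ubac2 changed by -1.36 ± 0.12 with LPS (limma adjusted p = 1.69e-07), and differed by -0.24 at 4 h (adjusted p = 0.103) and -0.30 at 14 h (adjusted p = 0.0438) with ConA. Ubac2 thus fell with LPS, as Gpr18 did and Gpr183 did not. P2ry10 is followed on chromosome X by P2ry10b and Gpr174, 2 related receptors. Gpr174, a lysophosphatidylserine receptor, changed by -0.65 ± 0.12 with LPS, where P2ry10 rose, and by 1.06 ± 0.12 and 0.30 ± 0.12 with ConA at 4 h and 14 h. P2ry10b, chosen after its values were seen, fell throughout, at -2.32 ± 0.19 with LPS and -0.86 ± 0.19 and -1.86 ± 0.19 with ConA. All LPS arrays read the same 4.66 for P2ry10b, and the ConA 14 h arrays 4.81 to 5.00. The sizes of these changes may therefore depend on the background correction. Whether the probe sets of P2ry10 and P2ry10b share signal was not tested.

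Of the other S1P receptors, S1pr3 passed the level filter and S1pr2 and S1pr5 did not. S1pr3 averaged 6.72 ± 0.24 in B cells with LPS and 11.08 ± 0.02 in B cells at 0 h (SD, n = 3 each), a change of -4.36 ± 0.11 (limma adjusted p = 1.32e-13). In T cells its means were 2.25 to 2.57, near the floor, with a difference of 0.32 at 4 h (adjusted p = 0.0164). Of 10 tested genes of S1P synthesis, transport and breakdown (14 listed), 3 rose, 5 fell and 2 did not pass with LPS. With ConA 3 rose and 2 fell at 4 h, and 3 rose and 3 fell at 14 h. The list medians were -0.50, -0.03 and 0.01, against -0.05, 0.00 and 0.03 over all genes tested. Of all genes, 37.6% rose and 42.3% fell with LPS, 33.4% rose and 32.5% fell with ConA at 4 h, and 36.6% rose and 31.9% fell at 14 h. The share of the list called in either direction was close to that of all genes with LPS and below it at both ConA times. Sgpl1, the lyase that degrades S1P, differed by 0.22 with LPS (adjusted p = 0.0667) and rose by 1.31 ± 0.10 and 0.84 ± 0.10 with ConA at 4 h and 14 h. Mfsd2b, an S1P exporter of red cells and platelets, rose by 2.31 ± 0.19 with LPS, and the lipid phosphatase Plpp3 changed by -5.62 ± 0.11. All LPS arrays read 2.35 for Plpp3, near the floor, so the size of that change depends on where the floor lies. The exporter Spns2 changed by -1.41 ± 0.12 at 4 h and -1.67 ± 0.12 at 14 h with ConA, with T cell means of 4.19 before ConA, 2.78 after 4 h and 2.51 after 14 h. The S1P kinase Sphk1 had means of 2.25 to 3.27 and was not tested.

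Of 4 enzymes that make or remove the Gpr183 ligand, only Cyp27a1 passed the level filter, and it changed by -4.50 ± 0.11 with LPS, to a mean of 2.34 near the floor, on which the size depends. Ch25h and Cyp7b1 were at 2.24 in all 5 groups. S1pr3 and Cyp27a1 fell in the B cell samples in which the monocyte, macrophage and neutrophil markers fell, and the part of those cells in these 2 results was not tested.

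Among 8 tested receptors for related lipids and nucleotides (28 listed), 3 rose and 5 fell with LPS, 2 rose and 5 fell with ConA at 4 h, and 2 rose and 6 fell at 14 h. The falls, 5, 5 and 6 of 8, stand beside 42.3%, 32.5% and 31.9% of all genes, and the rises beside 37.6%, 33.4% and 36.6%. The medians were -1.49, -0.60 and -0.80, against -0.05, 0.00 and 0.03 over all genes. Ptger4, a prostaglandin E2 receptor, rose by 3.40 ± 0.07 with LPS. With ConA it was lower by -0.29 ± 0.07 at 14 h (adjusted p = 0.00151) and by -0.17 ± 0.07 at 4 h (adjusted p = 0.0402). The 4 h call was lost with the replicate number as a block, with array medians set equal, with the 2 groups alone in the fit and without the 2 arrays with a weak 5′ spike-in signal. It was also lost without T 0 h array 2, ConA 4 h array 1 or 2, or any 1 of the ConA 14 h arrays. Gpr65, an acid-sensing receptor, rose by 2.43 ± 0.08 with LPS and by 0.54 ± 0.08 with ConA at 14 h. Gpr34, a lysophosphatidylserine receptor, changed by -5.39 ± 0.14 with LPS and by -4.04 ± 0.14 and -3.98 ± 0.14 with ConA, and its means after either agent were 2.26 to 2.33, at the floor.

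Of 28 tested genes that carry G protein signals to cell movement (30 listed), 5 rose and 19 fell with LPS, 4 rose and 18 fell with ConA at 4 h, and 6 rose and 19 fell at 14 h. Of all genes 42.3%, 32.5% and 31.9% fell, and 37.6%, 33.4% and 36.6% rose. The medians were -0.70, -0.71 and -0.62, against -0.05, 0.00 and 0.03 over all genes. Pik3cg, the catalytic subunit of a G protein-activated PI3 kinase, changed by -3.87 ± 0.16 with LPS and -2.07 ± 0.16 at 14 h, and the G protein subunit Gng2 by -2.49 ± 0.24 at 4 h. LPS arrays read 3.13 to 3.39 for Pik3cg, under 4 and near the floor, so the size of its LPS change depends on where the floor lies. Gnaq was the largest riser in each comparison, at 0.98 ± 0.19, 0.90 ± 0.19 and 0.56 ± 0.19. Gna13, a G protein alpha subunit, changed by -0.64 ± 0.07 with LPS and -0.31 ± 0.07 at 14 h, and differed by -0.13 at 4 h (adjusted p = 0.110).

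Klf2, a transcription factor known to drive S1pr1, averaged 9.30 ± 0.04 in B cells with LPS and 12.08 ± 0.06 in B cells at 0 h. In T cells Klf2 averaged 12.67 ± 0.09 before ConA, 11.83 ± 0.08 after 4 h and 12.15 ± 0.06 after 14 h (SD, n = 3 each). Its changes were -2.79 ± 0.07, -0.84 ± 0.07 and -0.52 ± 0.07 (limma adjusted p = 1.33e-13, 9.86e-08 and 1.19e-05), and its interaction was -1.94 ± 0.10 (adjusted p = 6.28e-10). Klf2 thus fell more in B cells, as S1pr1 did. In T cells with ConA, Klf2 averaged higher at 14 h than at 4 h, which S1pr1 did not. The part of Klf2 in the changes of S1pr1 was not tested. Of 10 tested genes of the Klf2 and Foxo axis with homing genes, 3 rose and 7 fell with LPS, and 1 rose and 8 fell at each ConA time, with medians of -1.20, -0.95 and -1.33. Of all genes 42.3% fell with LPS, 32.5% at 4 h of ConA and 31.9% at 14 h, with medians of -0.05, 0.00 and 0.03. The shares of all genes that rose were 37.6%, 33.4% and 36.6%.

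The homing genes of that list did not all go one way. Itgb7, an integrin subunit of gut homing, changed by -4.83 ± 0.07 with LPS and -4.21 ± 0.07 with ConA at 4 h. All LPS arrays read 2.93 for Itgb7, under 4 and near the floor, so the size of the LPS change depends on it. Il7r, the interleukin 7 receptor, changed by -3.26 ± 0.17 with ConA at 14 h, and rose by 3.02 ± 0.17 with LPS (8.09-fold, limma adjusted p = 1.05e-09). B cells at 0 h read 2.77 to 3.58 for Il7r, under 4 and near the floor, so the size of that rise depends on where the floor lies. Ccr7, the chemokine receptor of T cell zones, rose by 3.44 ± 0.13 with LPS and 1.37 ± 0.13 at 14 h. The adhesion receptor Cd44 rose by 2.83 ± 0.11 with LPS and by 0.84 ± 0.11 with ConA at 4 h, and did not pass the test at 14 h.

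Among 5 tested C-type lectin genes of the Cd69 gene complex (20 listed), Cd69 itself was the riser in each of the 3 comparisons. With it in the list, 1 rose and 3 fell with LPS, 1 rose and 2 fell at 4 h, and 1 rose and 3 fell at 14 h, with medians of -0.34, 0.03 and -0.49. Of all genes 42.3%, 32.5% and 31.9% fell, and 37.6%, 33.4% and 36.6% rose. Clec2i, a ligand gene for Klrb1 receptors, changed by -3.71 ± 0.28, -1.21 ± 0.28 and -1.92 ± 0.28.

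**Figure D5:**
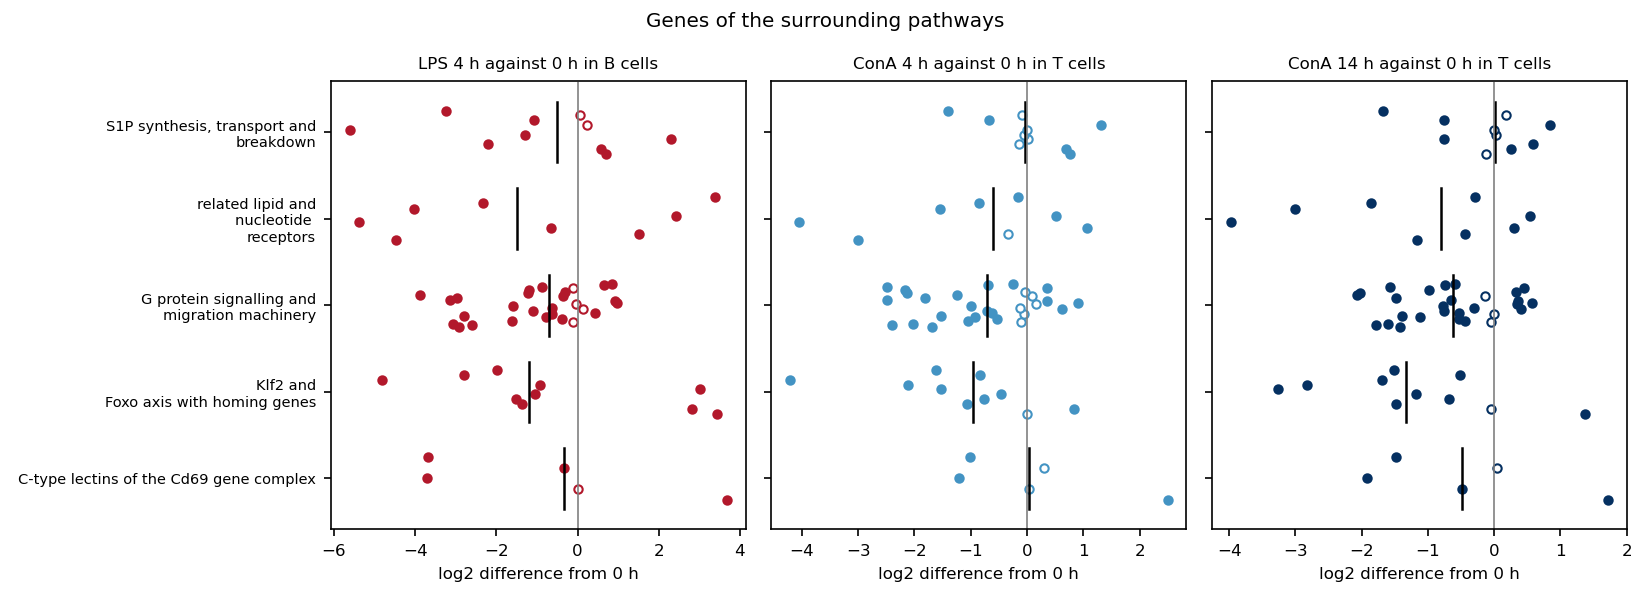
Log2 difference from 0 h (horizontal axis) of the tested genes of 5 lists (rows) in the 3 responses. Filled points passed an adjusted p under 0.05, open points did not, and bars mark list medians. The G protein and Klf2 lists lie mostly left of 0, with medians of -0.70 and -1.20 with LPS.

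By Pearson correlation of log2 signal over the 15 arrays, which share 5 groups, each of the 6 genes had others of like pattern. S1pr1 was closest to Rab24 (0.994), Lrch1 (0.994) and Crot (0.993), and S1pr4 to Fam168a (0.992), Ano6 (0.991) and Sertad3 (0.991). Cd69 was closest to Wdr3 (0.989), Slc7a6 (0.988) and Taf4b (0.986). Gpr183 was closest to Rsl1 (0.949), Med7 (0.948) and 2610507B11Rik (0.943), Gpr18 to Hes5 (0.971), Slc37a2 (0.946) and Ptpn1 (0.943), and P2ry10 to Smox (0.941), Zfp36l1 (0.940) and Adam8 (0.931). Among the 6 genes themselves, Gpr183 and P2ry10 correlated at 0.90 and Gpr183 and Gpr18 at 0.69.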

How the data were processed

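Total RNA (100 ng) was labelled with biotin and hybridised to Affymetrix mouse arrays, per the labels' protocols. The deposited values are log2 signals that the authors made with GCRMA, per the submitters' processing notes; its version is not given in the sources read. GCRMA corrects the background by probe sequence and normalizes arrays to one another. The lowest value, 2.24, is shared by 39.2% of values, and 59.2% lie under 4. Equal RNA mass was labelled, so RNA per cell is not visible.

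Names came from the annotation of the array platform, and each gene took its brightest probe set of 1 symbol. For 7 comparisons, limma 3.58.1 (R 4.3.3) fitted group means over the 15 arrays. P-values were Benjamini-Hochberg adjusted over 9045 genes, and genes were called at an adjusted p under 0.05. Only 3 arrays per group limit the precision. The text names all probe sets of the 6 genes. From each list it names the called gene with the largest rise and the one with the largest fall per response, plus Klf2, Ch25h, Sphk1, Sgpl1 and Gna13; a further gene of this rule is not reported here. Other listed genes, and further values of the named ones, were chosen after they were seen. For each of the 6 genes it also names the 3 genes with the highest correlation. Members, lists, tests and alternatives were chosen with earlier results of these data known.

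Tested on simulated data with 9045 genes, the fit recovered 91% of 2-fold and 69% of 1.5-fold changes for LPS. For ConA at 4 h it recovered 93% and 71%, at 14 h 93% and 78%, and for the interaction 78% and 43%. It made 10 to 12 false calls among 8845 unchanged genes. In these data 100 genes changed by each size, and each gene had the same spread in every group. On the arrays far more genes were called, 79.9% with LPS, and spreads differed between groups. The simulated figures therefore need not hold for the arrays. Alternatives were other normalizations, filters, variance models and probe sets, a spike-in covariate, the replicate number as a block, and fits without single arrays.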

Additional observations from a re-analysis of the deposited data

Results flagged for a closer look

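The 4 h responses of B and T cells differed for all 6 genes by the interaction term of the limma fit, in which cell type and agent change together. The difference, B response minus T response on the log2 scale, was -7.00 for S1pr1, -3.97 for S1pr4, -2.08 for Gpr18, -1.74 for Gpr183, -0.88 for P2ry10 and 1.19 for Cd69. Of all genes tested, 66.1% passed the same test. For Gpr18 the 3 arrays of B cells with LPS lay below those at 0 h, and the 3 arrays of T cells with ConA lay above those at 0 h. For Gpr183 the second probe set gave -1.72.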

How the results depend on the processing

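For the 6 genes in 7 comparisons, 42 results were recomputed under 27 settings, which gave 1141 values. Of these, 1111 kept the direction and the side of the threshold, 9 lost the call, 10 gained it and 11 changed sign. In many settings the log2 difference could not move and only its p-value could. The replicate block and fits without an array of a group not compared were such settings. The counts of values kept, here and for the list genes below, are therefore no measure of robustness. The changes of sign were limited to Cd69 and Gpr183 in LPS-treated B against ConA-treated T cells at 4 h, neither of which was called in the reported fit. Cd69 there was -0.077 with array medians set equal, -0.086 with quantile normalization, -0.069 with array weights, -0.060 without both weak spike-in arrays and -0.14 with the spike-in covariate (single arrays left out: -0.067 to 0.14). Gpr183 there was 0.15 with cyclic loess, and was called at -0.88 on its second probe set, -0.15 without both weak spike-in arrays and -0.20 with the covariate (single arrays left out: -0.15 to 0.032). P2ry10 there lost its call with cyclic loess (-0.041) and the covariate (-0.20), and ranged from -0.27 to -0.15 with single arrays left out. Gpr183 with LPS lost its call with cyclic loess (0.17) and quantile normalization (0.089), and ranged from 0.21 to 0.26. S1pr4 at 14 h against 0 h was called at -0.46 in the fit on the groups compared and with trend and robust variances, and at -0.45 with array weights (single arrays left out: -0.48 to -0.44), which made 2 of the 6 genes lower there (1 to 2 with single arrays left out). S1pr4 at 14 h against 4 h kept 0.69 and lost its call with no filter, where more genes are tested, which left 0 genes higher. S1pr1 in B against T cells at 0 h was called at 0.37 with cyclic loess. That normalization moved the median of all genes by 0.14 at 0 h and 0.15 after 4 h between B and T cells, and setting array medians equal moved it by -0.10 at 0 h. Apart from the larger number of genes tested with no filter, the cause was not tested.

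Same-numbered replicates did not deviate together: their correlations ran from -0.46 to 0.24, with 3 of 30 above 0.1. With the replicate number as a block, S1pr1 with LPS stayed at -8.20 and S1pr4 at 14 h had an adjusted p of 0.0673, and no member's call changed. For called list genes, neighbours and 3 uncalled genes named, 4377 values were recomputed. Of these, 4240 kept the direction and the side of the threshold, 44 lost the call, 6 gained it and 0 changed sign. The remaining values are in none of these counts. Among the calls printed for these genes, the 14 h calls of Gpr174 and Gnaq with ConA were lost with no filter. That of Gpr174 was also lost under cyclic loess and quantile normalization. The Ubac2 call at 14 h was lost with no filter and with the block, and the S1pr3 call at 4 h without both weak spike-in arrays. The arrays read no level below the floor, which limits S1pr1 and S1pr4 after LPS, and 3 arrays a group limit small changes such as Gpr183 with LPS.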
